A study of Mus musculus with 2 samples.

Results

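The genes described here carry proteins into the endoplasmic reticulum (ER) and between the ER and the Golgi. They encode subunits of the signal recognition particle and the Sec61 translocon, the COPII and COPI vesicle coats and the p24 family. These genes also encode other cargo receptors, ARF GTPases, Sec22 proteins and TRAPP tethers. They were chosen by gene symbol alone, as every probe set assigned to a single symbol of the Sec11, Sec13, Sec16, Sec22, Sec23, Sec24, Sec31, Sec61, Sec62, Sec63, Sar1, Cop, Tmed, Arf, Ssr, Srp, Trappc, Lman or Kdelr families. This gave 158 probe sets of 74 genes, out of 45037 probe sets and 18193 named genes on the array. RNA came from Neuro2a cells, a mouse neuroblastoma line, transfected with an siRNA against Tmem132a (1 array) or with a non-specific control siRNA (1 array), and was hybridised to Affymetrix Mouse Genome 430 2.0 arrays. Both groups are the same line, and the labels give neither the siRNA sequences nor the time after transfection. With 1 array per group there is no replicate check: no test between the groups was possible, and differences are described by size alone.

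Secretory proteins are recognised on the ribosome by the signal recognition particle and threaded into the ER through the Sec61 channel. COPII coats bud vesicles from the ER towards the Golgi, where TRAPP complexes tether them and SNAREs such as Sec22b fuse them, and COPI coats, recruited by ARF GTPases, return proteins to the ER. Members of the p24 (Tmed) family, Lman1, Lman2 and the KDEL receptors (Kdelr) select cargo for these vesicles. TMEM132A is a membrane protein that was described as a binding partner of HSPA5, the main ER chaperone, and several of the genes below are known targets of the ER stress factor XBP1 in other cells.

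The values are MAS5 signals, a linear measure of probe set brightness, and a difference is the log2 ratio of the Tmem132a siRNA signal over the control siRNA signal. A gene's ratio is the mean over its probe sets with a mean signal of at least 77.25, the median of the array. Tmem132a itself was read by 1 probe set. Its signal was 435.6 on the Tmem132a siRNA array and 1825.5 on the control siRNA array, so that 23.9% of the control level was left. Markers of sympathetic neuroblastoma cells were present on both arrays: 13 of 15 with a probe set passed the filter, among them Phox2a and Hand2, while Nefl and Nefm did not. Their summed signal was 53252.8 on the Tmem132a siRNA array and 63580.0 on the control siRNA array. Markers of immune cells (0 of 5 past the filter) and of fibroblasts (0 of 6) were near background, as were those of glia (1 of 5) and of epithelium and endothelium (1 of 6). The summed signal of the immune markers was 240.2 on the Tmem132a siRNA array and 70.5 on the control siRNA array.

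Most of the secretory genes differed little between the arrays. Of the 74 genes, 70 had a value, and 63 of these lay within 1.5-fold. On the Tmem132a siRNA array, 5 of 70 genes were higher by 1.5-fold or more (7.14%), beside a background of 8.83% of all 10678 measured genes. A further 2 of 70 (2.86%) were lower by that factor, beside a background of 9.10%. No member reached 2-fold in either direction (0 of 70 each), where the background was 2.10% higher and 2.44% lower. The members were mostly genes of high signal: 60 of the 70 had a probe set with a mean signal of at least 1000. Among all 4569 genes of such signal 4.57% were higher by 1.5-fold or more and 5.01% lower, and among the 60 members 4 were higher and 1 lower. Where the members stand against the background depends on the setting: with a pseudocount in place of the floor 5 of 70 were higher (7.14%) beside 4.35% of all genes, and without probe sets marked x, s or a 7 of 56 were lower (12.5%) beside 9.74%. The median ratio of the members was 0.05, and that of all measured genes was 0.02. In a bulk sample, a change in the number of cells that express a gene and a change in RNA per cell cannot be told apart.

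**Figure D1:**
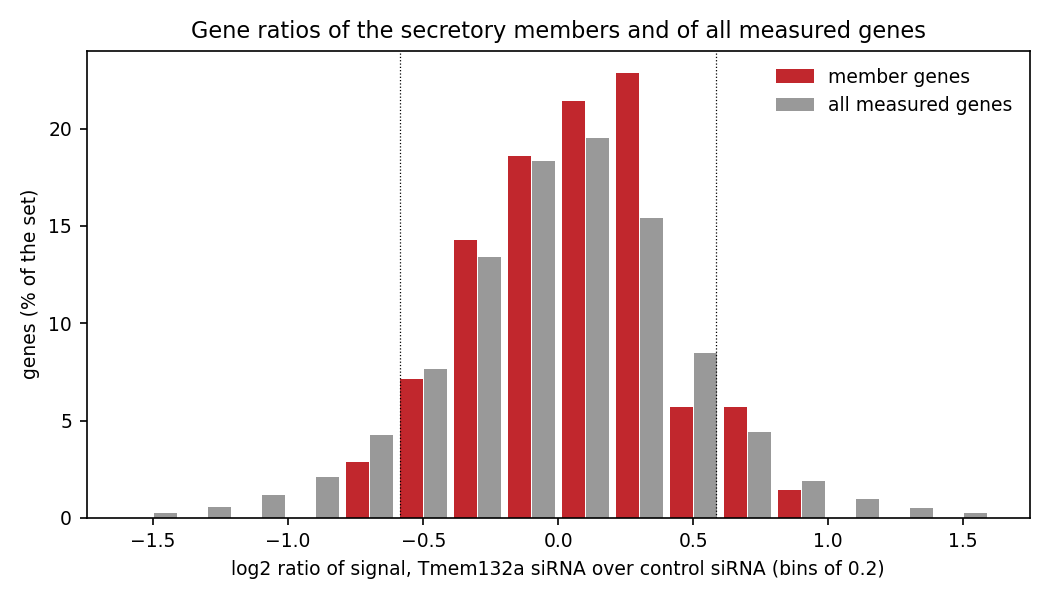
Share of genes (vertical axis, % of the set) in bins of 0.2 of the log2 ratio, Tmem132a siRNA over control siRNA (horizontal axis), for the 70 secretory member genes (red) and all 10678 measured genes (grey); dotted lines mark 1.5-fold. The members lie between -0.76 and 0.87, with 63 of 70 inside the dotted lines.

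The functional classes lay at different levels. COPII genes had a median of 0.27 (12 genes) and the Sec22 genes one of 0.63 (3 genes). COPI genes had a median of 0.16 (7 genes), p24 genes one of -0.04 (7 genes), ER entry genes one of -0.05 (16 genes), TRAPP genes one of -0.06 (14 genes), cargo receptors one of -0.09 (5 genes) and ARF genes one of -0.21 (6 genes). Differences between these medians were not tested. Where a member had several probe sets, their log2 ratios had an SD of 0.36 around the gene's mean (36 genes). This SD measures disagreement of probe sets within the same RNA samples and not variation between cultures. Its source was not tested.

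**Figure D2:**
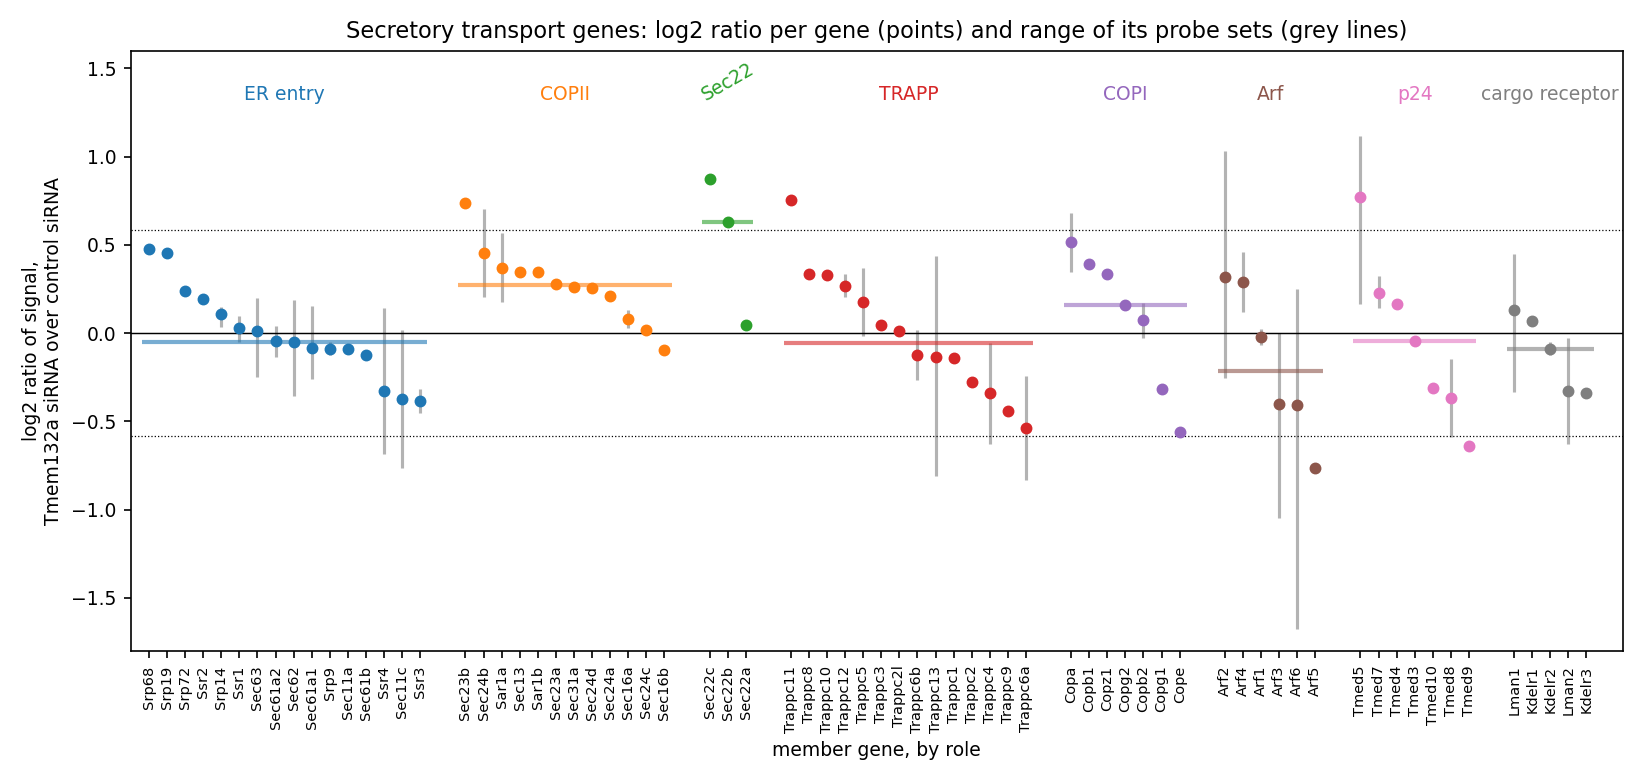
Log2 ratio of signal, Tmem132a siRNA over control siRNA (vertical axis), for each of the 70 measured member genes, grouped by role (horizontal axis). Points are gene values, grey lines the range of the gene's probe sets, coloured bars the median of each role and dotted lines 1.5-fold. In the COPII group 11 of 12 points lie above 0, while the ER entry points lie around 0 and Arf6 has the longest grey line.

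The COPII genes taken by the symbol rule were mostly higher on the Tmem132a siRNA array. A ratio above 0 was found for 11 of 12 genes (91.7%), beside a background of 51.8% of all measured genes, and for 14 of their 15 probe sets, where the background was 51.9%. The sizes were small: the class median of 0.27 was below the upper quartile of all measured genes (0.28). Probe sets of the 3 COPII genes with several had an SD of 0.26 around the gene's mean. Only 1 gene passed 1.5-fold. That gene was Sec23b, which encodes a subunit of the inner coat. Sec23b had a signal of 4972.6 on the Tmem132a siRNA array and 2977.9 on the control siRNA array, a log2 ratio of 0.74. Of all measured genes 5.05% had a ratio as high, as did 1.86% of those with a signal of at least 1000. Its paralog Sec23a had 4720.9 on the Tmem132a siRNA array and 3886.2 on the control siRNA array (0.28).

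Sec24 proteins form the rest of the inner coat and bind the cargo, and all 4 paralogs were above 0. The ratio of Sec24b was 0.46, as the mean of 0.71 and 0.20 for its probe sets. The first read 931.6 on the Tmem132a siRNA array and 571.0 on the control siRNA array, and the other 1539.3 on the Tmem132a siRNA array and 1335.9 on the control siRNA array. Sec24d had a ratio of 0.26 (1808.6 with the Tmem132a siRNA, 1512.6 with the control siRNA), Sec24a one of 0.21 and Sec24c one of 0.02 (3074.9 with the Tmem132a siRNA, 3038.5 with the control siRNA). The outer coat genes Sec13 and Sec31a had ratios of 0.35 and 0.26. Sec13 read 3490.1 on the Tmem132a siRNA array and 2740.6 on the control siRNA array.

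Sar1a and Sar1b encode the GTPases that start coat assembly, and both lay above 0. Sar1b had a signal of 7315.0 on the Tmem132a siRNA array and 5760.6 on the control siRNA array (0.34). Sar1a had a ratio of 0.37 over probe sets of 0.57 and 0.18. Sec16a, the scaffold of ER exit sites, was near 0 (0.08), and Sec16b, which was dim (90.5 with the Tmem132a siRNA, 96.7 with the control siRNA), was the exception at -0.10. The COPII median stayed between 0.23 and 0.31 in every alternative setting tried, though some of these settings could not move it.

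Promoters were examined next, since COPII genes lay mostly on 1 side. RefSeq windows of 250 bases before to 50 after the start (build GRCm38.p6) were at hand for 57 of the 70 measured members. The letters GCCACGT, the core of a site bound by XBP1, were present on either strand in 18 of 57 member promoters (31.6%), against 4.76% of the promoters of 8713 measured genes and 2.95% of all 27025 genes with such a window. COPII genes held it in 7 of 12 promoters (58.3%), and ER entry genes in 3 of 11. The core overlaps the CCACG end of the ERSE motif and can run into the E-box CACGTG, as it did in 2 of the 18 genes. The ERSE and ERSE-II motifs as searched were in 0 of the 57 windows (0.149% and 0.0918% of measured genes), and TGATGNAA, a C/EBP-ATF core, was in 1 (2.67% of measured genes), that of Kdelr1. A match is a description of letters and no evidence of binding.

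The windows of the 7 COPII genes are shown because they hold the same letters in promoters of genes of 1 class. Each is read along the gene's strand, 5′ to 3′, with 12 bases on either side, and the capitals mark GCCACGT or its reverse complement.
Sar1a (chr10:61680115-61680145, plus strand): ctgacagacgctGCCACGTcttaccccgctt
Sec13 (chr6:113740666-113740696, minus strand): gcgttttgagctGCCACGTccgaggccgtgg
Sec16b (chr1:157506742-157506772, plus strand): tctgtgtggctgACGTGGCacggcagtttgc
Sec23a (chr12:59011991-59012021, minus strand): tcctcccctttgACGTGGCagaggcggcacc
Sec24c (chr14:20674234-20674264, plus strand): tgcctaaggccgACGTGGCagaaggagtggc
Sec24d (chr3:123267460-123267490, plus strand): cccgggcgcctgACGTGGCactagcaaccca
Sec31a (chr5:100416204-100416234, minus strand): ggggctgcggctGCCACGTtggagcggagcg
The centre of the core lay 155 bases before the start in Sar1a, 72 before in Sec24c, 39 before in Sec16b and 21 before in Sec24d. It lay on the start itself in Sec13, 11 bases after it in Sec23a and 15 after it in Sec31a. Of 20 matches in the 18 members, 14 were within 50 bases of the start.

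COPII genes lay mostly above 0 both with and without the core. The 7 COPII genes with it had a median of 0.26 (6 of 7 above 0), and the 5 without it had a median of 0.34 (5 of 5 above 0). Among the other members, the 11 with the core had a median of -0.28 (3 of 11 above 0) and the 34 without it one of 0.07 (20 of 34). Over all measured genes the medians were 0.01 with the core (415 genes) and 0.01 without it (8298 genes). None of the 5 members that were at least 1.5-fold higher held the core (0 of 5), and both that were at least 1.5-fold lower, Arf5 and Tmed9, did. The share over all 57 member promoters was 31.6%, and 5 and 2 genes are too few to read anything from these counts.
Arf5 (chr6:28423521-28423551, plus strand): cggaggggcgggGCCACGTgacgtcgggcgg
Tmed9 (chr13:55593119-55593149, plus strand): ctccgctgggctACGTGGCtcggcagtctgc
These windows are given for comparison with the COPII windows above, with the core in capitals. Its centre lay 68 bases before the start in Arf5, within an E-box, and 1 base before it in Tmed9.

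**Figure D3:**
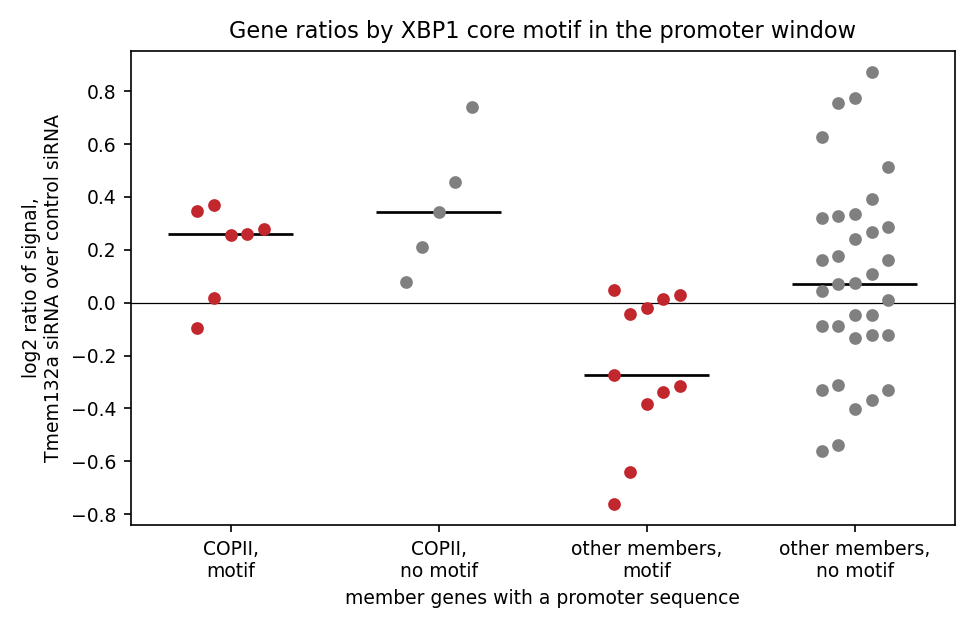
Log2 ratio of signal, Tmem132a siRNA over control siRNA (vertical axis), of the 57 members with a promoter window, split into COPII and other members and by presence of the XBP1 core (red) or its absence (grey); each point is a gene and black bars are medians. Of the COPII genes, 6 of 7 with the core and 5 of 5 without it lie above 0, and 8 of the 11 other members with it lie below 0.

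The promoter of Sec23b is shown whole because it belongs to the COPII gene with the largest ratio and, unlike that of its paralog Sec23a, holds no GCCACGT. RefSeq lists 2 starts for the gene, and the window of the upstream one is given. Capitals mark CCAAT on either strand, a common promoter element bound by NF-Y that was looked up after the ratios were known.
Sec23b (chr2:144555979-144556278, plus strand): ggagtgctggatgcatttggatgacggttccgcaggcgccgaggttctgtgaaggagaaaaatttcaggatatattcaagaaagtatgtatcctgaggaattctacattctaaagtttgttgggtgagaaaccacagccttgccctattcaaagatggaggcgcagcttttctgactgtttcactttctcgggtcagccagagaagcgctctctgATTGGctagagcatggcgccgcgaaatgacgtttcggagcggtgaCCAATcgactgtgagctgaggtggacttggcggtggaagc
CCAAT was in 22 of the 57 member promoters (38.6%) and in 43.5% of those of measured genes.

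Sec22b, the best studied of the Sec22 genes, encodes an R-SNARE of ER and Golgi membranes that pairs with SNAREs of the early Golgi. Its probe sets gave 3158.5 and 1861.3 on the Tmem132a siRNA array and 2006.3 and 1225.8 on the control siRNA array. They agreed in size, with ratios of 0.65 and 0.60, and the gene's ratio was 0.63. Sec22c had the largest ratio of all members, 0.87, from 1 probe set (476.3 with the Tmem132a siRNA, 260.3 with the control siRNA). Among all measured genes 3.17% had a ratio as high. Sec22a had 359.8 with the Tmem132a siRNA and 347.8 with the control siRNA, a ratio of 0.05. The Sec22b promoter, given because both probe sets of the gene passed 1.5-fold, reads as follows, again with CCAAT in capitals.
Sec22b (chr3:97900977-97901276, plus strand): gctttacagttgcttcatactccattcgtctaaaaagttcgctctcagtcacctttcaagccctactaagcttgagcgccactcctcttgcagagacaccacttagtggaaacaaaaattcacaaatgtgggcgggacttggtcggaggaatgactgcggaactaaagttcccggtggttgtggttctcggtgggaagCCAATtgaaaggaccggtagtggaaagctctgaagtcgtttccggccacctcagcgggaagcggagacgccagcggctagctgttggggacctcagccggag

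ER entry genes were near 0 as a class, with 7 of 16 above 0 and none at 1.5-fold (0 of 16). The 6 probe sets of Sec61a1, the pore subunit of the translocon, ran from -0.26 to 0.15, and the one giving 0.15 read 6624.7 on the Tmem132a siRNA array and 5950.1 on the control siRNA array. Sec61a2 had a ratio of -0.05 and Sec61b, a small subunit, one of -0.12. Sec62 and Sec63, which assist import of finished chains, lay at -0.05 over 4 probe sets and 0.01 over 5. These values are within the disagreement of probe sets.

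Within the signal recognition particle the largest ratios were those of Srp68 and Srp19. Srp68 had 5985.3 on the Tmem132a siRNA array and 4295.0 on the control siRNA array (0.48). Srp19 had 5989.6 with the Tmem132a siRNA and 4372.7 with the control siRNA (0.45). Srp72, whose protein pairs with that of Srp68, had a ratio of 0.24, with both probe sets above 0. The Alu domain subunits Srp14 and Srp9 lay at 0.11 and -0.09. Thus 4 of 5 measured subunits were above 0, none of them 1.5-fold.

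The TRAP complex (Ssr genes), which assists the translocon, was split. Ssr3 was lower by both probe sets, with 6339.6 and 5118.5 on the Tmem132a siRNA array and 8670.3 and 6381.4 on the control siRNA array (-0.38). Ssr4 lay at -0.33, with 3 probe sets that ran from -0.69 to 0.14. Ssr1 and Ssr2 lay at 0.03 and 0.19. Of the catalytic subunits of signal peptidase, Sec11a lay at -0.09 and Sec11c at -0.37. The Sec11c value rests on a dim probe set (60.3 with the Tmem132a siRNA, 102.5 with the control siRNA), as its other probe set read 3660.0 with the Tmem132a siRNA and 3612.6 with the control siRNA.

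TRAPP subunits were evenly divided, with 7 of 14 above 0. Trappc11 was the only one past 1.5-fold, with 6733.4 on the Tmem132a siRNA array and 3986.7 on the control siRNA array, a ratio of 0.76. It was read by a single probe set whose suffix (s) marks probes that can match related transcripts, and without such probe sets it had no value. Together with Trappc8, Trappc12 and Trappc13 its protein belongs to the TRAPPIII complex, and these lay at 0.33, 0.27 and -0.13. With no filter Trappc12 turned to -0.15. The probe sets of Trappc13 disagreed, from -0.81 to 0.44. Of the TRAPPII subunits Trappc10 had a ratio of 0.33 and Trappc9 one of -0.44. Among subunits of the shared core Trappc6a was lowest, at -0.54 (478.0 and 85.7 with the Tmem132a siRNA, 851.0 and 101.3 with the control siRNA). Its paralog Trappc6b lay at -0.12, and Trappc2l at 0.01 (6253.1 with the Tmem132a siRNA, 6208.2 with the control siRNA).

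COPI coat subunits ran from -0.56 to 0.51, with 5 of 7 above 0 and none past 1.5-fold (0 of 7). The largest ratio was that of Copa, the alpha subunit, whose brightest probe set read 10887.6 on the Tmem132a siRNA array and 8553.9 on the control siRNA array. Its other probe set gave 312.3 with the Tmem132a siRNA and 194.9 with the control siRNA, and the gene's ratio was 0.51. Copb1 lay at 0.39 (3244.3 with the Tmem132a siRNA, 2469.3 with the control siRNA) and Copz1 at 0.34, which turned to -0.31 when a dim probe set was let in by dropping the signal filter. Cope, the epsilon subunit, was lowest, with 2549.2 on the Tmem132a siRNA array and 3756.8 on the control siRNA array (-0.56). The paralogous gamma subunits differed in sign: Copg1 had a ratio of -0.32, with both probe sets below 0, and Copg2 one of 0.16. Subunits of 1 coat thus did not share a direction on these arrays.

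ARF genes, which encode the GTPases that recruit COPI and other coats, were the class whose probe sets disagreed most, with an SD of 0.61 around the gene mean against at most 0.42 in the other classes. Arf5 was lower, with 402.7 on the Tmem132a siRNA array and 682.4 on the control siRNA array (-0.76, 1 probe set). Arf1, the main ARF of the Golgi, hardly differed: its brightest probe set read 20495.6 with the Tmem132a siRNA and 20130.1 with the control siRNA. Arf4 had 3 probe sets above 0, of 0.46, 0.28 and 0.12, the first with 6384.5 on the Tmem132a siRNA array and 4644.8 on the control siRNA array.

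The values of Arf2, Arf3 and Arf6 depend on which probe set is read. Arf6, an ARF of the plasma membrane, had probe sets at 11861.9 and 2159.1 with the Tmem132a siRNA, against 10308.5 and 1812.7 with the control siRNA. Those gave ratios of 0.20 and 0.25. Its remaining probe set past the filter read 484.4 on the Tmem132a siRNA array and 1545.7 on the control siRNA array, a ratio of -1.67, the largest of any member probe set past the filter. Arf3 likewise had 1 probe set at -1.05 (305.2 with the Tmem132a siRNA, 630.9 with the control siRNA), while its others lay between -0.38 and 0.00. Arf2 had probe sets at 1.03 (1831.9 with the Tmem132a siRNA, 896.6 with the control siRNA) and 0.53, and others at -0.25 and -0.03. The gene means of 0.32 for Arf2, -0.40 for Arf3 and -0.41 for Arf6 are therefore averages of unlike readings. The ARF median of -0.21 was 0.11 when each gene was read by its brightest probe set and -0.71 without probe sets marked x, s or a, so that no direction can be given for the class.

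**Figure D4:**
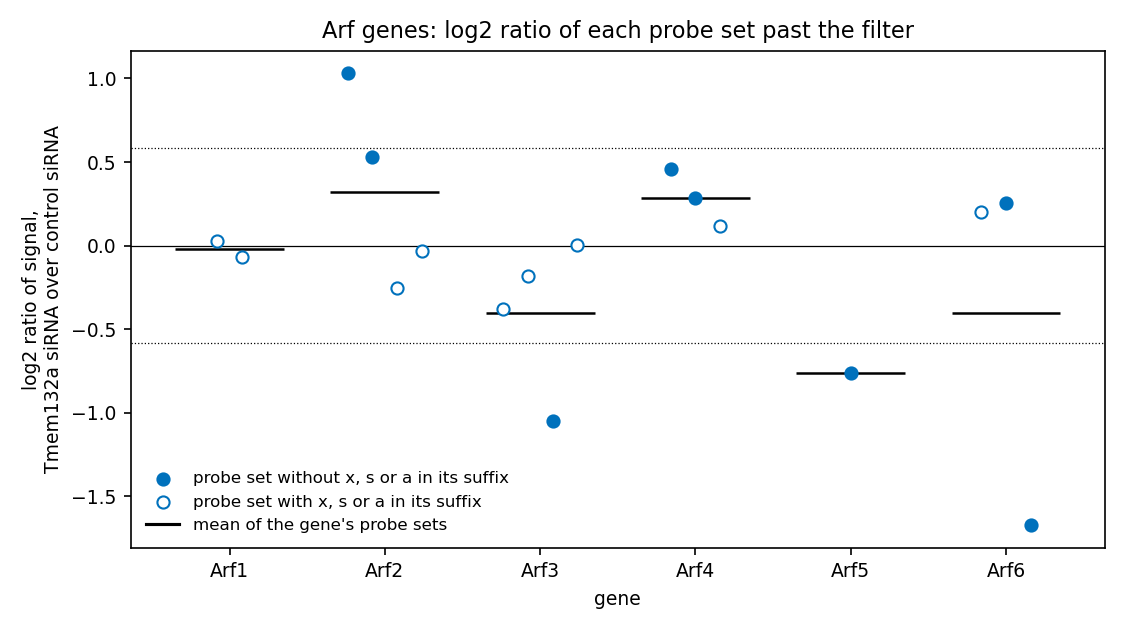
Log2 ratio of signal, Tmem132a siRNA over control siRNA (vertical axis), of each probe set past the signal filter of Arf1 to Arf6 (horizontal axis); open circles are probe sets whose suffix holds x, s or a, black bars gene means and dotted lines 1.5-fold. In Arf6 a single probe set lies at -1.67 and the others near 0.2, and in Arf3 a single one lies at -1.05.

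Members of the p24 family, which cycle between ER and Golgi as cargo receptors and coat adaptors, held the opposite extremes of their class in Tmed5 and Tmed9. Tmed5 had a ratio of 0.77 over 4 probe sets, all above 0. Its probe sets read 2813.2, 1272.8, 382.5 and 188.6 on the Tmem132a siRNA array, against 1377.5, 740.3, 176.4 and 168.4 on the control siRNA array. The first 3 gave ratios of 1.03, 0.78 and 1.12, and the dimmest gave 0.16. Read by its brightest probe set alone, Tmed5 exceeded 2-fold (1.03). Of all measured genes, 4.45% had a gene ratio as high, as did 1.47% of those with a signal of at least 1000.

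Tmed9 was lower by both its probe sets, with 3124.2 and 1046.0 on the Tmem132a siRNA array and 4961.5 and 1599.3 on the control siRNA array. The ratios were -0.67 and -0.61, and the gene's was -0.64. Tmed8 and Tmed10 also lay below 0, at -0.37 and -0.31, and Tmed7 and Tmed4 above, at 0.23 and 0.16. Tmed3 had nearly equal signals (2635.7 with the Tmem132a siRNA, 2717.7 with the control siRNA). The Tmed5 promoter is shown because 3 of the gene's probe sets passed 1.5-fold, with CCAAT, here on the reverse strand, in capitals.
Tmed5 (chr5:108132571-108132870, minus strand): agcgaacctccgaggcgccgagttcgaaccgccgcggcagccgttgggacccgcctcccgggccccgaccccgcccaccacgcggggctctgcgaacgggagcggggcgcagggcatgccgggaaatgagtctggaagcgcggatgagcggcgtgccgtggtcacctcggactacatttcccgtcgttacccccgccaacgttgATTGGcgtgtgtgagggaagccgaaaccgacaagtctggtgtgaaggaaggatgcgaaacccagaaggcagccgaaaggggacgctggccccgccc

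**Figure D5:**
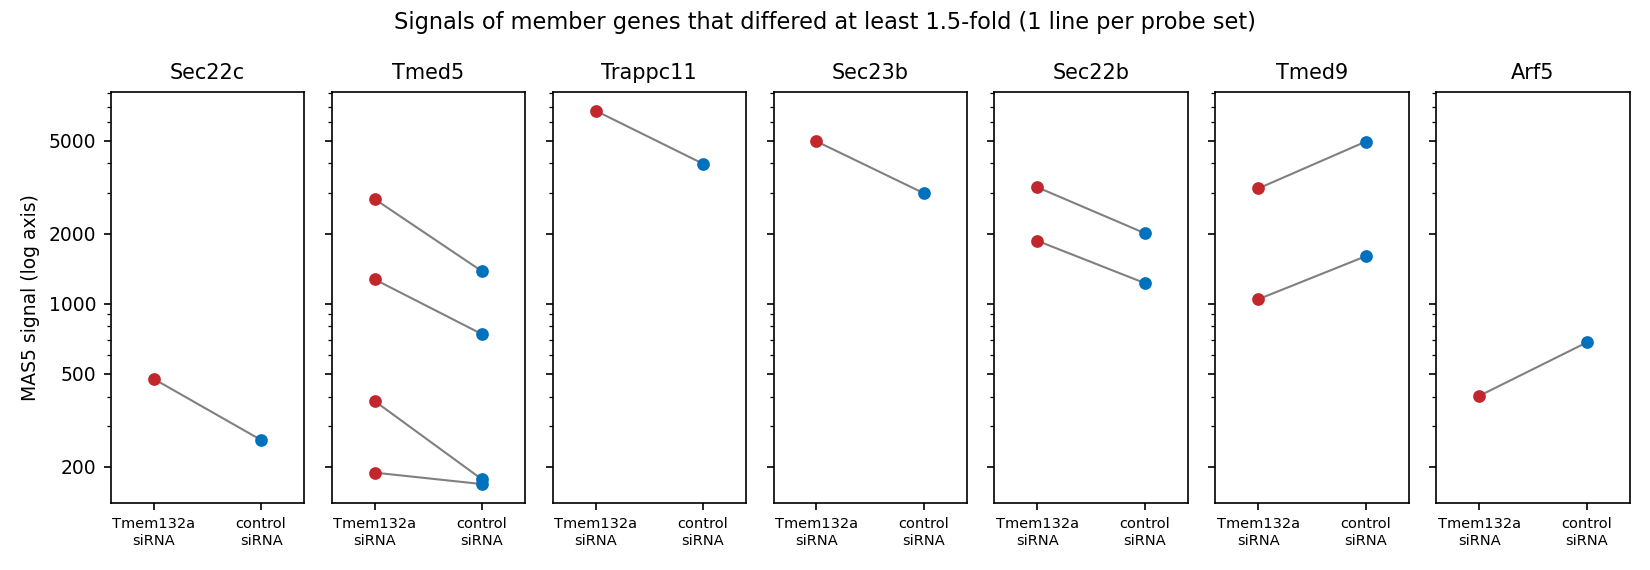
MAS5 signals (vertical axis, log scale) on the Tmem132a siRNA array (red, left) and the control siRNA array (blue, right) for the 7 members that differed at least 1.5-fold; each line is 1 probe set past the filter. The lines of Sec22c, Tmed5, Trappc11, Sec23b and Sec22b are higher on the left, and those of Tmed9 and Arf5 are lower on the left.

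Cargo and retrieval receptors differed little, with 2 of 5 above 0 and none past 1.5-fold (0 of 5). Kdelr1 and Kdelr2, which return escaped ER chaperones, lay at 0.07 and -0.09. Kdelr1 read 1371.3 on the Tmem132a siRNA array and 1306.0 on the control siRNA array, and the brightest probe set of Kdelr2 read 2288.7 on the Tmem132a siRNA array and 2493.1 on the control siRNA array. Kdelr3 was dim (90.1 with the Tmem132a siRNA, 113.8 with the control siRNA) and lay at -0.34. Lman1, the receptor of coagulation factors also called ERGIC-53, lay at 0.13, and its probe sets disagreed, from -0.33 to 0.45. Its brightest probe set read 2174.2 on the Tmem132a siRNA array and 1662.9 on the control siRNA array, and the one at -0.33 read 116.4 on the Tmem132a siRNA array and 146.6 on the control siRNA array. Lman2, a lectin of high-mannose glycoproteins, lay at -0.33, and its probe sets disagreed, at -0.63 and -0.03. They read 1591.9 and 824.7 on the Tmem132a siRNA array, against 2463.6 and 840.7 on the control siRNA array.

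Of the 74 genes, 4 had no probe set past the filter. Copz2 was just below it, with 92.8 on the Tmem132a siRNA array and 52.4 on the control siRNA array. On the Tmem132a siRNA array Tmed6 read 38.4, Tmed11 3.8 and the probe set assigned to Tmed2 alone 30.9, against 1.1, 5.2 and 20.9 in the same order on the control siRNA array. The members close above the filter were Sec16b and Kdelr3, given above. A further 12 probe sets name a member together with another gene and were left out by the rule. The 6 for Tmed2 with a predicted gene ran from -0.15 to 0.21, the 4 for Tmed10 with its pseudogene from -0.26 to -0.12, and that for Sec61g with predicted genes was at -0.49 (5794.2 with the Tmem132a siRNA, 8120.2 with the control siRNA). The largest ratio among them, -0.90, was that of the dim probe set for Sec61b with a predicted gene, which read 62.2 on the Tmem132a siRNA array and 115.8 on the control siRNA array.

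Other genes of the same steps, which the symbol rule does not take, gave a similar picture. Of 77 listed genes 71 had a value, with a median of 0.10; 3 (4.23%) were higher by 1.5-fold or more and 4 (5.63%) lower, where the backgrounds were 8.83% and 9.10% of all measured genes and 4.57% and 5.01% of those with a signal of at least 1000. The higher ones were Nbas, a subunit of the tether for Golgi-to-ER vesicles (0.87), the SNARE Ykt6 (0.70) and Mia3, the collagen export receptor TANGO1 (0.64). Nbas read 1113.6 with the Tmem132a siRNA and 609.5 with the control siRNA. The 2 probe sets of Ykt6 gave ratios of 0.79 and 0.60. Its brighter one, at 0.79, read 1886.8 with the Tmem132a siRNA and 1090.6 with the control siRNA. The lower ones were Cnih4, a cargo receptor for membrane proteins (-0.83), the ER cargo receptor Surf4 (-0.65), Ergic3 (-0.61) and Ost4, a subunit of the oligosaccharyltransferase (-0.60). The 2 probe sets of Cnih4 gave ratios of -1.09 and -0.57. Its brighter one, at -0.57, read 4438.2 with the Tmem132a siRNA and 6602.2 with the control siRNA. Mia3 was under 1.5-fold in 4 of the alternative settings, Ergic3 and Ost4 in 3 each, and Nbas and Cnih4 in 1 each. The other SNAREs of the list were Bet1l (0.577), Stx18 (0.57), Bet1 (0.40), Gosr2 (0.25), Stx5a (0.24), Gosr1 (0.20), Bnip1 (-0.01) and Use1 (-0.12). The delta subunit of COPI (Arcn1) lay at 0.06, and Preb, the activator of SAR1, at -0.23.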

How the data were processed

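Total RNA of Neuro2a cells was measured on 1 array per group, grouped by sample title. The description field of the Tmem132a siRNA sample repeats the control's wording, and its title and treatment fields were followed. The authors deposited MAS5 signal intensity per probe set, not log-transformed, as named in the submitters' processing notes. The MAS5 version, the scaling target and the detection calls are not given in the sources used here. The 2% trimmed mean was 500.003 on each array, which shows a common scale. The number of arrays limits the precision.

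Computation used Python 3.11.15, numpy 2.4.6, pandas 2.3.3, scipy 1.17.1, statsmodels 0.14.6 and matplotlib 3.10.9. Of 45101 probe sets, 64 control probe sets were left out. Names came from the 2016 platform annotation (34945 probe sets with 1 symbol, 932 with several, 9160 unnamed), and all 158 member symbols were current by Entrez identifier in GRCm38.p6. Signals under 14.5 (20th percentile) were set to that value. Probe sets with a mean signal of at least 77.25 were kept (22519), and gene ratios are means over them (10678 genes). The alternatives were 4 other scalings, no filter or one at 462.8, no floor or a pseudocount of 79.2, the brightest probe set, and no x, s or a probe sets. The procedure was run on simulated data with known changes of 2-fold or more. Smaller changes, the size of most ratios given here, and variation between cultures were not simulated. The members, lists, motifs and naming rule were chosen with earlier results of these data known, and CCAAT and the E-box were added after the ratios were seen. All member genes may be named; signals are given for those at least 1.5-fold, for the highest, lowest and brightest of each role, and where probe sets disagree.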

Additional observations from a re-analysis of the deposited data

How the results depend on the processing

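Of the 7 members counted as 1.5-fold, all kept that size in every alternative in which they had a value. Sec22c had none with the 462.8 filter and Trappc11 none with x, s and a probe sets omitted. Not every alternative could change them. Leaving out the rescaling to 1 trimmed mean could not, as both arrays already had 500.003. Dropping the floor could not either, as 0 member probe sets past the filter had a floored signal. Reading the brightest probe set could not change Sec23b, Sec22c, Trappc11 and Arf5, which had 1 probe set past the filter each. Members at least 1.5-fold higher were 5 of 70 as reported (7.14%, beside 8.83% of all genes). They were 7 of 74 with no filter (9.46%, below the share of all genes), 5 of 66 with the 462.8 filter (7.58%, beside 5.71%), 5 of 70 with the pseudocount (7.14%, beside 4.35%), 6 of 70 by the brightest probe set (8.57%, beside 9.30%) and 5 of 56 without x, s and a probe sets (8.93%, beside 9.26%). The share of higher members thus passed that of all genes with the 462.8 filter and with the pseudocount. Members at least 1.5-fold lower were 2 of 70 as reported (2.86%, beside 9.10%), 3 of 74 with no filter (4.05%, beside 12.1%), 4 of 66 with the 462.8 filter (6.06%, beside 6.74%), 2 of 70 with the pseudocount (2.86%, beside 5.15%) and 5 of 70 by the brightest probe set (7.14%, beside 10.1%). Omission of x, s and a probe sets gave 7 of 56 (12.5%, beside 9.74%), with 1 at least 2-fold lower, and was the setting in which lower members passed the share of all genes. The sign of the ratio turned for 5 members with no filter (Copz1, Lman1, Sec62, Tmed3, Trappc12), for 3 with the 462.8 filter (Sec11c, Ssr1, Trappc13) and for 9 by the brightest probe set (Arf1, Arf6, Sec11c, Sec61a1, Sec61a2, Ssr1, Trappc5, Trappc6b, Trappc13), and for 0 in the other settings. Members at least 2-fold higher numbered 0 as reported, 2 with no filter, 1 with the 462.8 filter and 2 by the brightest probe set, which also moved the median of all members to 0.10. The ARF median was 0.11 by the brightest probe set and -0.71 when x, s and a probe sets were omitted, which leaves 5 ARF genes. In the pathway list, genes at least 1.5-fold higher were 5 after quantile normalization and 7 by the brightest probe set, and genes at least 1.5-fold lower were 2 with the pseudocount, 2 by the brightest probe set and 1 after that omission. COPII genes above 0 were 11 of 12 as reported, 11 of 11 with the 462.8 filter and 10 of 11 after the omission. No paired analysis was possible because each group has 1 array. Probe set disagreement (SD 0.36 among members, 0.39 among all genes) exceeds most ratios given here, and variation between cultures was not measured. Among probe sets with a mean signal of at least 1000 the SD was 0.30 for members (25 genes) and 0.21 for all genes (1320 genes).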

Other observations

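A CCAAT element on either strand was present in the promoter windows of all 5 members that were at least 1.5-fold higher (Sec22b, Sec22c, Sec23b, Tmed5 and Trappc11), in 1 of the 2 that were at least 1.5-fold lower, and in 43.5% of the promoters of measured genes. The element was looked up after the ratios were seen, and the 5 genes are too few to read anything from it.

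Some paralogs within the secretory genes lay far apart, as seen from pairs picked after their values were known. Beside Sec23b and Sec23a (0.74 and 0.28), Sec22c and Sec22a had ratios of 0.87 and 0.05, Copg2 and Copg1 0.16 and -0.32, Tmed5 and Tmed9 0.77 and -0.64, and Arf4 and Arf5 0.29 and -0.76. These differences were not tested.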
